A study of Homo sapiens with 17 samples.

Results

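L1ME copies are the fragments of LINE-1 (L1) elements whose subfamily name begins with L1ME, an old branch of the L1 family that inserted early in mammalian evolution. They were taken from the table of repeat loci by that name alone. They came to 212858 of the 3594049 loci of the table (5.92%) and fell into 27 subfamilies. RNA bound to the 2 L1 proteins was sequenced from N2102Ep, an established human embryonal carcinoma cell line, by RIP-seq, which isolates a protein together with its bound RNA and sequences that RNA. The libraries were 4 ORF2p RIP, 4 ORF1p RIP, 3 mock IP, whose descriptions carry the term mIgG, and 6 total RNA. All were labelled N2102Ep with no added agent, and every group except the ORF1p RIP also carried the name clone 2/A6, so that clone and ORF1p RIP cannot be told apart. The table held repeats and no genes, so the cell type was not checked against marker genes.

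An L1 element codes for ORF1p, an RNA-binding protein that coats the L1 transcript, and for ORF2p, an endonuclease and reverse transcriptase that copies it back into DNA. Both proteins bind by preference the RNA that encoded them. L1ME copies are too worn and truncated to make either protein, and their sequence is mostly read as a passenger inside transcripts that start elsewhere, such as introns of genes, long noncoding RNAs (lncRNAs) and read-through from other repeats. L1ME sequence also lies in a few promoters and microRNA hairpins.

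The median L1ME copy was 256 bp long, with a range of 25 to 7745 bp, and 5.87% of copies were longer than 1000 bp. Only 2 copies reached 6000 bp, the length of a full element. The divergence field of the locus names had a median of 260 over L1ME copies, 222 over L1MC and L1MD copies and 8 over L1HS, the active human subfamily. No source used here states the unit of that field. L1ME4a had the most copies (26473), followed by L1ME1 (24105) and L1ME4b (17186), and L1MEa had the fewest (265). Of all L1ME copies, 59.4% lay in the span of 1 annotated gene, 5.18% in several and 35.5% in none. Among 97241 copies in a single span of known strand, 64.5% ran opposite to the gene.

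Promoter windows and microRNA hairpins of RefSeq (GRCh38.p14) that overlap an L1ME copy are shown because they are the stretches of L1ME sequence with a gene's name in the tables used here. At least 100 L1ME bases lay in 142 of 35116 promoter windows (0.404%) and at least 30 L1ME bases in 10 of 1562 hairpins (0.640%). The window of LOC124901420, at chr6:145915237-145915536 on the plus strand, was the only promoter window whose L1ME copy had enough reads for the test of single copies, and 292 of its 300 bases belong to an L1MEg copy of 1001 bp. The 74 bases of the MIR4771-2 hairpin, at chr2:111771061-111771134 on the minus strand, all lie in an L1MEg copy of 932 bp on the same strand. The hairpin of MIR4771-1, at chr2:87194786-87194859 on the plus strand, has the same 74 bases, so reads of the 2 copies may have been shared out between them. The 97 bases of MIR3915, at chrX:32583656-32583752 on the minus strand, lie in an L1ME3A copy on the plus strand. Capitals mark L1ME bases, in DNA letters for the promoter window and RNA letters for the hairpins.
LOC124901420 promoter: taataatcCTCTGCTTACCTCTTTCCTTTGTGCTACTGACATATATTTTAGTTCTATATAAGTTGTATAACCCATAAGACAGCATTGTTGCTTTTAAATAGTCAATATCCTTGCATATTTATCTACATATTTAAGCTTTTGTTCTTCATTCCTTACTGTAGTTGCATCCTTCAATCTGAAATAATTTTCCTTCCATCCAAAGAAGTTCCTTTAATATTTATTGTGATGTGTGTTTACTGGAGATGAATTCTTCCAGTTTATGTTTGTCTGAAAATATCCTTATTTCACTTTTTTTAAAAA
MIR4771-2 hairpin: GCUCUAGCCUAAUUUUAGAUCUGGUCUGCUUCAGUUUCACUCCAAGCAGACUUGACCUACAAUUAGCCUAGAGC
MIR3915 hairpin: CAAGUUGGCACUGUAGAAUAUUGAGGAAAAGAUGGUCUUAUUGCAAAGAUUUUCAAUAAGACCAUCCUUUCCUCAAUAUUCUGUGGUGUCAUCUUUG

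The L1MEg copy at the LOC124901420 promoter had 6.77, 11.3, 3.56 and 4.14 CPM (reads scaled by library depth and TMM factor) in the 4 ORF2p RIP libraries. It had 3.74, 5.66, 9.90 and 4.60 CPM in the ORF1p RIP and 4.37, 9.11 and 4.21 CPM in the mock IP. Total RNA had 4.04 and 4.09 CPM in the libraries whose descriptions carry the letter b and 23.5, 25.02, 23.3 and 27.4 CPM in those that carry bl. The RIPs and the mock IP overlapped, and only the bl libraries stood above the rest. The copy changed by 0.12 on the log2 scale in the ORF2p RIP over the mock IP (edgeR quasi-likelihood test, adjusted p = 0.896) and was called lower than total RNA in both RIPs, at -1.48 in the ORF2p RIP and -1.58 in the ORF1p RIP (adjusted p = 0.0274 and 0.0132), although the b libraries lay within the range of the RIPs. The copy of MIR4771-2 changed by -0.61 (adjusted p = 0.442) in the same comparison and was likewise higher in the bl libraries, at 9.32 to 10.01 CPM, than in every other library, at 0.246 to 5.31 CPM. The copy of MIR3915 held 84.8 reads over the 17 libraries, none of them in the ORF1p RIP, and was not tested.

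Repeat reads came to 9795032 to 17056092 in the ORF2p RIP, 7693841 to 9125527 in the ORF1p RIP, 12703395 to 16271143 in the mock IP and 8937441 to 19670774 in total RNA. L1ME reads ran from 566759 to 1942413 per library. One library stood apart: ORF1p RIP replicate 3 had reads at 21.3% of L1ME copies, against 31.4% to 32.3% in the other ORF1p RIP libraries, and a TMM factor of 0.81 against 1.03 to 1.05. Total RNA split into its b libraries (replicates 1 and 2) and bl libraries (replicates 3 to 6), and no source used here states what the letters stand for. No label names separate cultures for the replicates, so the p-values reflect spread among libraries that may be technical.

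L1ME made up 6.88%, 7.91%, 7.93% and 7.54% of repeat reads in the ORF2p RIP, 7.04%, 7.55%, 7.37% and 6.89% of those of the ORF1p RIP, and 5.56%, 6.26% and 5.93% of those of the mock IP. It made up 5.83% and 6.33% in total RNA of series b and 10.1%, 10.4%, 11.04% and 9.94% in series bl. Every library of either RIP lay above every mock IP library, and the total RNA libraries lay on both sides of the RIPs. The ORF2p RIP exceeded the mock IP by 1.65 percentage points and the ORF1p RIP exceeded it by 1.30 points (exact two-sided permutation p = 0.0571 for each, adjusted p = 0.129 over 9 tests). Without ORF1p RIP replicate 3 the second difference was 1.24 points. With 4 libraries against 3, 0.0571 is the smallest p this test can give. The ORF2p RIP and ORF1p RIP differed by 0.355 points (exact p = 0.314, adjusted p = 0.354). This difference was -0.0874 points once the single L1ME copy with the most reads was removed. It was -0.791 points without loci inside gene spans (exact p = 0.0286, adjusted p = 0.0857).

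Set against L1MC and L1MD, the L1 branches nearest in name, L1ME had a log2 ratio of reads of 0.681 ± 0.0248 in the ORF2p RIP, 0.696 ± 0.0323 in the ORF1p RIP and 0.533 ± 0.0200 in the mock IP (SD, n = 4, 4 and 3 libraries). The differences from the mock IP were 0.148 and 0.164 (exact p = 0.0571 and adjusted p = 0.129 for both). Without loci inside gene spans the ORF2p RIP difference was -0.0128. Per kb of annotated sequence, L1ME copies had 1.14 ± 0.0647 CPM in the ORF2p RIP, 0.941 ± 0.144 in the ORF1p RIP and 0.717 ± 0.0237 in the mock IP. L1PA and L1HS copies, which include the youngest human L1s as well as older ones, had 1.64 ± 0.0795 CPM per kb in the ORF2p RIP, 0.862 ± 0.467 in the ORF1p RIP, where libraries ran from 0.611 to 1.56, and 0.396 ± 0.0205 in the mock IP.

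In the ORF2p RIP, L1ME3C stood out from the other L1ME subfamilies with a level 10.5-fold that of the mock IP, and L1MEg1 was 2.69-fold higher. L1ME3C had 9030, 10908, 10392 and 9494 CPM in the ORF2p RIP, 741, 805, 971 and 691 CPM in the ORF1p RIP, and 915, 1015 and 919 CPM in the mock IP. Total RNA had 703 and 794 CPM in series b and 2757, 2373, 2833 and 2174 CPM in series bl. The ORF2p RIP libraries lay above all others without overlap. The fitted log2 change was 3.39 ± 0.43 (SE) over the mock IP (edgeR, adjusted p = 2.37e-05) and 3.63 ± 0.39 over the ORF1p RIP (adjusted p = 8.63e-07).

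L1MEg1, one of the smallest subfamilies with 639 copies, had 576, 652, 620 and 582 CPM in the ORF2p RIP, 219, 211, 314 and 220 CPM in the ORF1p RIP and 228, 220 and 231 CPM in the mock IP. In total RNA it had 217 and 224 CPM in series b and 428, 423, 445 and 411 CPM in series bl. The ORF2p RIP libraries again lay above all others, and the ORF1p RIP and mock IP overlapped. The log2 change was 1.43 ± 0.24 over the mock IP (edgeR, adjusted p = 3.08e-04) and 1.33 ± 0.22 over the ORF1p RIP (adjusted p = 6.66e-05).

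These were the only calls among the 27 subfamilies in the ORF2p RIP over the mock IP, at an adjusted p under 0.05 and a change of at least 2-fold, with none lower. Over all 1074 subfamilies tested, 6.7% were called higher and 1.49% lower. At an adjusted p under 0.05 and any fold, 10 of the 27 were higher and 0 lower, against 16.7% higher and 15.5% lower over all subfamilies (13 of the 27 had an unadjusted p under 0.05). The other 8 were L1MEd at 0.88, L1ME3F at 0.83, L1ME3Cz at 0.80, L1MEh at 0.68, L1ME3 at 0.63, L1MEc at 0.62, L1ME4a at 0.54 and L1ME3G at 0.50 on the log2 scale. The fitted change was positive for 26 of 27, with L1MEg2 at -0.20 (adjusted p = 0.174). The median L1ME change was 0.40 against -0.03 over all subfamilies, and it was 0.09 against -0.34 when libraries were scaled by their totals, a scaling that moved the median of all subfamilies by -0.31.

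In the ORF1p RIP over the mock IP no L1ME subfamily was called by edgeR, against 7.36% higher and 8.75% lower over all subfamilies (9 of the 27 had an unadjusted p under 0.05, and DESeq2 called 0 as well). At any fold, 6 were higher, against 26% over all subfamilies: L1ME4c at 0.83, L1ME4a at 0.68, L1ME3B at 0.62, L1ME2z at 0.53, L1ME4b at 0.46 and L1ME3G at 0.43. L1MEg2 was lower at -0.34, against 25.6% lower over all. The 3 L1ME4 subfamilies have the shortest copies of the branch, with medians of 175 bp for L1ME4a, 186 bp for L1ME4c and 202 bp for L1ME4b. L1ME3C changed by -0.24 ± 0.38 (adjusted p = 0.608) and L1MEg1 by 0.09 ± 0.23 (adjusted p = 0.757).

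**Figure D1:**
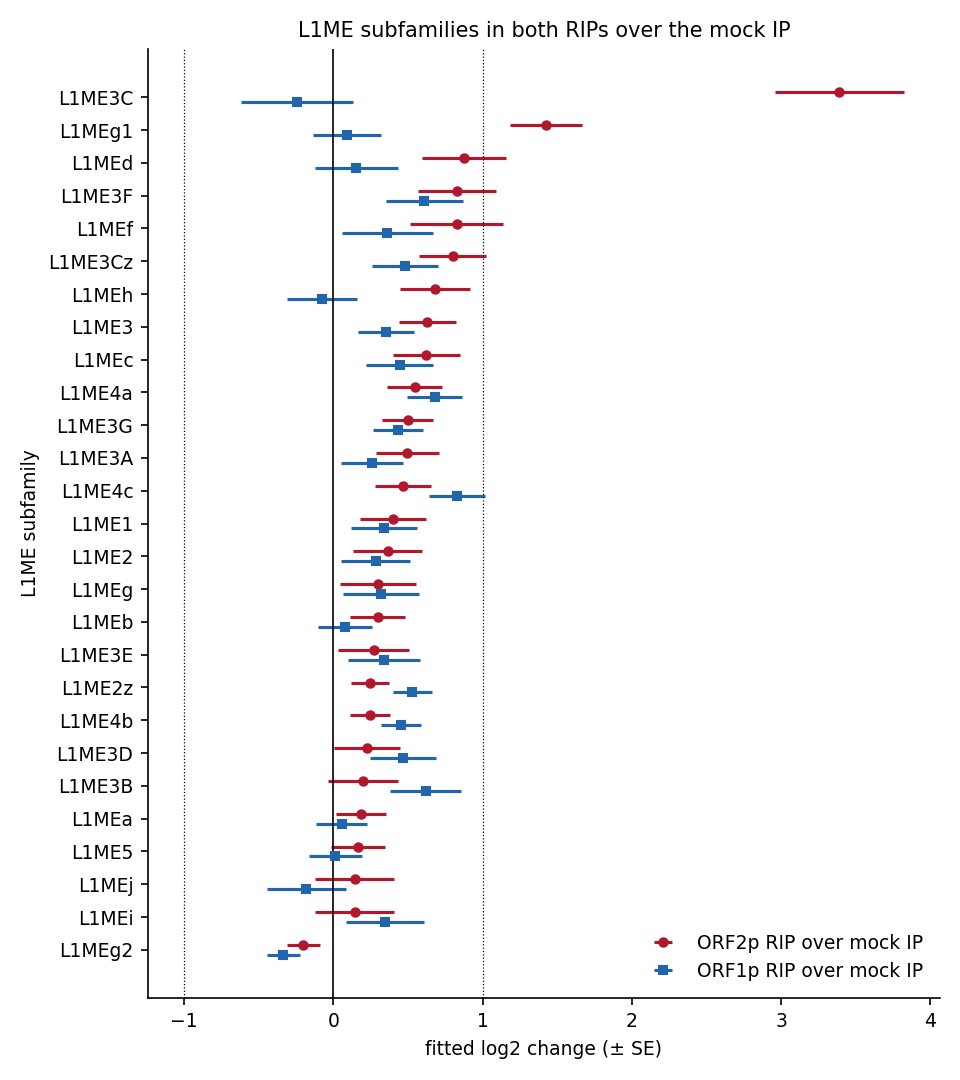
Fitted log2 change (x axis, ± SE) of the 27 L1ME subfamilies (y axis) in the ORF2p RIP over the mock IP (circles) and the ORF1p RIP over the mock IP (squares), with dotted lines at a 2-fold change. L1ME3C and L1MEg1 lie beyond 2-fold in the ORF2p RIP, at 3.39 and 1.43, and no subfamily lies beyond it in the ORF1p RIP.

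The ORF2p RIP over the ORF1p RIP, a comparison that shares libraries with both of those above, called L1ME3C and L1MEg1 higher and no subfamily lower, against 12.4% and 6.52% over all subfamilies. L1MEh at 0.76 and L1MEd at 0.72 were also higher at an adjusted p under 0.05 and any fold (edgeR, adjusted p = 0.00717 and 0.0248), where 28.1% of all subfamilies were higher and 28.3% lower. L1MEd had 8347, 8875, 8406 and 8469 CPM in the ORF2p RIP, 4558, 4884, 6693 and 4531 CPM in the ORF1p RIP and 4453, 4825 and 4644 CPM in the mock IP. The highest ORF1p RIP value is that of replicate 3, and it too lay below the ORF2p RIP. The 2 subfamilies with the most L1ME reads other than L1MEd were L1ME1 and L1ME4a, and neither was called between the RIPs, with changes of 0.06 ± 0.20 and -0.13 ± 0.17 (adjusted p = 0.811 and 0.511).

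L1ME1 had 9318 to 11112 CPM in the ORF2p RIP, 8778 to 11842 CPM in the ORF1p RIP and 7652 to 8103 CPM in the mock IP. L1ME4a had 6748 to 7557 CPM in the ORF2p RIP, 7013 to 9496 CPM in the ORF1p RIP and 4787 to 5116 CPM in the mock IP. In both subfamilies the mock IP lay below both RIPs without overlap. In total RNA, L1ME1 had 6555 and 6998 CPM in series b against 12223 to 13111 CPM in series bl, and L1ME4a had 4131 and 4584 CPM against 6534 to 7833 CPM.

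**Figure D2:**
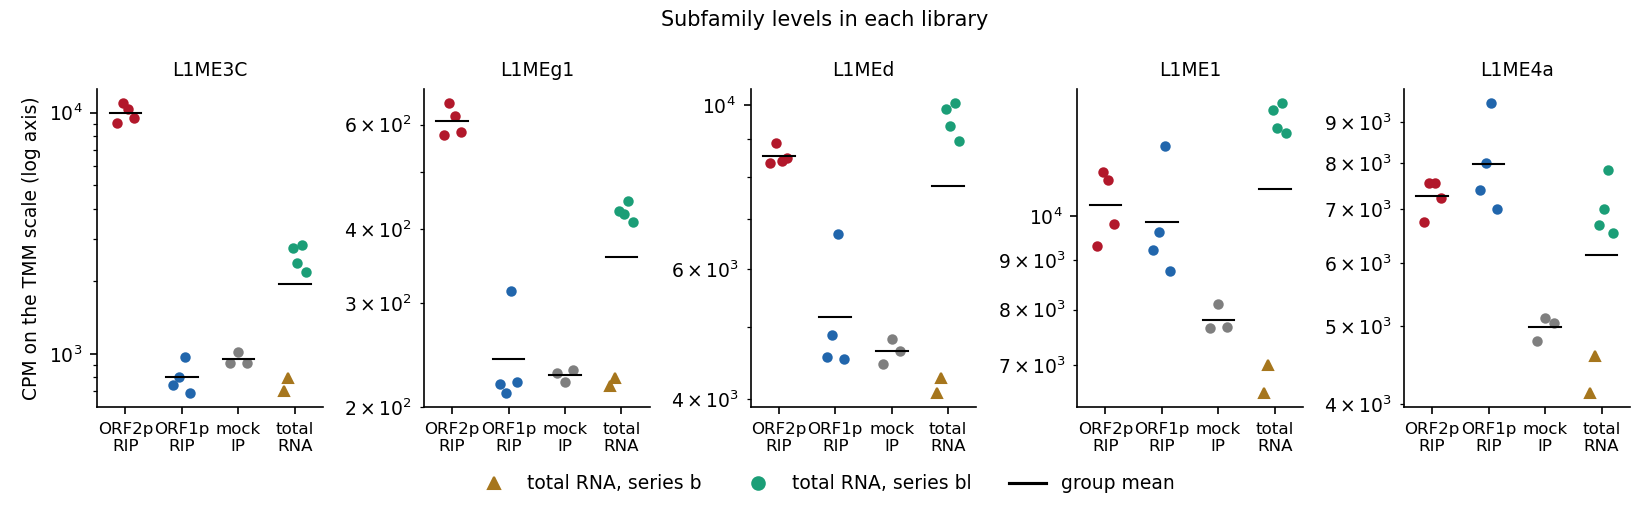
CPM on the TMM scale (y axis, log scale, its range set per panel) of L1ME3C, L1MEg1, L1MEd, L1ME1 and L1ME4a in each library (points) of the ORF2p RIP, ORF1p RIP, mock IP and total RNA, with lines at group means. L1ME3C sits at 9030 to 10908 CPM in the ORF2p RIP and at 2833 CPM or less in every other library, and the b and bl libraries of total RNA separate in all 5 panels.

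Per kb of annotated sequence, L1ME3C led in the ORF2p RIP at 11.6 ± 0.989 CPM per kb, against 0.933 ± 0.142 in the ORF1p RIP and 1.11 ± 0.0654 in the mock IP. L1MEg1 was next at 2.84 ± 0.165 in the ORF2p RIP, 1.13 ± 0.228 in the ORF1p RIP and 1.06 ± 0.0260 in the mock IP. The other 25 subfamilies lay between 0.505 and 1.43 CPM per kb in the ORF2p RIP, 0.460 and 1.57 for the ORF1p RIP, and 0.443 and 1.35 for the mock IP. L1ME4c had the highest level in the ORF1p RIP, L1MEg2 in the mock IP, and L1MEa the lowest level in all 3 groups.

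Against total RNA, 1 subfamily was called higher in the ORF2p RIP, L1ME3C at 2.36 ± 0.32 (edgeR, adjusted p = 2.96e-05), where 5.12% of all subfamilies were higher and 1.3% lower. At any fold, 2 L1ME subfamilies were higher and 1 lower in the ORF2p RIP, against 18% and 20.6% of all, and the ORF1p RIP had 4 higher and 7 lower, against 29.1% and 28.6%. L1ME3C was the 1 L1ME subfamily called lower in the ORF1p RIP, at -1.27 ± 0.33 (adjusted p = 0.00372), where 9.12% of all subfamilies were higher and 8.29% lower. The second result depended on the series of total RNA: L1ME3C in the ORF1p RIP changed by -1.69 (adjusted p = 1.48e-10) over series bl and by 0.03 (adjusted p = 0.811) over series b. The ORF2p RIP was higher than either series, by 1.97 over bl and 3.69 over b (adjusted p = 1.37e-10 and 4.26e-11). The mock IP had no L1ME subfamily called over total RNA at 2-fold, where 0.745% of all subfamilies were higher and 0.0% lower, or at any fold, where 2.23% were higher and 0.652% lower (20 of the 27 had an unadjusted p under 0.05, DESeq2 called 1, and 4 were called lower over series bl alone).

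The reads of L1ME were spread over many copies, and a few copies took a large share in the ORF2p RIP. The copy with the most reads held 1.79% of all L1ME reads, the first 10 held 5.57% and the first 1000 held 28.1%, while 50% of the reads lay in 5084 copies. The 10 leading copies of each library held 16.7% ± 0.264 of its L1ME reads in the ORF2p RIP, 2.39% ± 0.657 in the ORF1p RIP and 2.01% ± 0.116 in the mock IP. The lowest ORF2p RIP library, at 16.4%, lay far above the highest ORF1p RIP library, at 3.38%. The exact permutation p was 0.0571 over the mock IP and 0.0286 over the ORF1p RIP, the smallest each design can give (adjusted p = 0.0735 for both over 18 tests of place and spread, which were chosen after values had been seen). Thinned to 566000 L1ME reads, a library had reads at 56712 ± 4692 copies in the ORF2p RIP, 60451 ± 10752 in the ORF1p RIP and 78611 ± 1741 in the mock IP. Without thinning these means were 64845, 61253 and 88028 copies.

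A pair of neighbouring L1ME3C copies held 53.5% and 39.4% of the reads of that subfamily in the ORF2p RIP. They lie on the plus strand at chr2:77096220-77098124 (1905 bp) and chr2:77098180-77099600 (1421 bp), inside the span of LRRTM4, which codes for a synaptic adhesion protein. Copies of HERVH or its LTR7 ends and of young L1 lie within 10 kb of the pair. The strand of LRRTM4 was not known here, so whether the pair runs with the gene cannot be told. The first copy had 4893, 5783, 5399 and 5182 CPM in the ORF2p RIP, 29.2, 34.3, 73.7 and 29.1 CPM in the ORF1p RIP and 188, 238 and 183 CPM in the mock IP. In total RNA it had 106 and 133 CPM in series b and 1173, 984, 1243 and 869 CPM in series bl. The ORF2p RIP lay above, and the ORF1p RIP below, every other library. The log2 change was 4.71 ± 0.74 in the ORF2p RIP over the mock IP (edgeR, adjusted p = 3.95e-05) and -2.29 ± 0.62 in the ORF1p RIP over the mock IP (adjusted p = 0.00225).

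The second L1ME3C copy had 3501, 4378, 4273 and 3613 CPM in the ORF2p RIP, 19.1, 21.9, 37.2 and 23.6 CPM in the ORF1p RIP and 130, 142 and 126 CPM in the mock IP. Its changes over the mock IP were 4.89 ± 0.72 in the ORF2p RIP and -2.38 ± 0.59 in the ORF1p RIP (edgeR, adjusted p = 1.96e-05 and 0.00120). Both copies thus had the same order of groups. Together they held 10.3% ± 0.327 of L1ME reads in the ORF2p RIP, 0.0873% ± 0.0232 in the ORF1p RIP and 0.589% ± 0.0509 in the mock IP. The other repeats of the LRRTM4 span changed by 2.00 ± 0.19 in the ORF2p RIP and by -3.004 ± 0.19 in the ORF1p RIP over the mock IP (adjusted p = 4.33e-07 and 1.48e-10).

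Without its leading copy L1ME3C kept a change of 2.71 in the ORF2p RIP over the mock IP (edgeR, adjusted p = 2.71e-05), and without its 5 leading copies it changed by 0.26 (adjusted p = 0.302). For L1MEg1 the change without the 5 leading copies was 0.47 (adjusted p = 0.0927). Among single L1ME3C copies with enough reads, 9 of 23 were called higher and 2 lower in the ORF2p RIP over the mock IP, beside 30.4% higher and 15.2% lower of all loci tested. The ORF1p RIP had 5 higher and 13 lower, beside 39.0% higher and 39.1% lower of all loci.

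The leading L1MEd copies lie in the span of L1TD1, whose protein descends from an L1 ORF1p and marks pluripotent cells. The copy at chr1:62206564-62206907 (344 bp, plus strand, as the gene) had 1793, 1753, 1612 and 1662 CPM in the ORF2p RIP, 12.8, 13.7, 40.2 and 21.1 CPM in the ORF1p RIP and 118, 137 and 127 CPM in the mock IP. In total RNA it had 118 and 114 CPM in series b and 608, 421, 467 and 511 CPM in series bl. As at the LRRTM4 copies, the ORF2p RIP was highest and the ORF1p RIP lowest, without overlap. The changes over the mock IP were 3.74 ± 0.57 in the ORF2p RIP and -2.54 ± 0.50 in the ORF1p RIP (edgeR, adjusted p = 2.75e-05 and 1.32e-04).

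The next L1MEd copy, at chr1:62207100-62207716 (617 bp), had 1282, 1128, 1084 and 1203 CPM in the ORF2p RIP, 8.86, 9.44, 31.3 and 10.4 CPM in the ORF1p RIP and 62.1, 72.1 and 57.8 CPM in the mock IP. Replicate 3 was the highest ORF1p RIP library at both copies and still lay below the mock IP. The other repeats of the L1TD1 span changed by 2.58 ± 0.33 in the ORF2p RIP and -3.72 ± 0.33 in the ORF1p RIP over the mock IP (edgeR, adjusted p = 1.18e-05 and 1.50e-08). Together these 2 copies held 3.21% ± 0.339 of L1ME reads in the ORF2p RIP, 0.0474% ± 0.0221 in the ORF1p RIP and 0.336% ± 0.0158 in the mock IP. These are bulk samples of recovered RNA, and how many cells held a transcript, or how much each held, cannot be told from them.

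A copy that was high in both RIPs was that of L1ME3F at chr1:236899040-236900641 (1602 bp, plus strand, as the gene) in the span of MTR, which codes for methionine synthase. It had 387, 445, 415 and 418 CPM in the ORF2p RIP, 138, 159, 350 and 164 CPM in the ORF1p RIP and 20.7, 25.6 and 20.9 CPM in the mock IP. Total RNA had 26.3 and 29.3 CPM in series b and 78.2, 67.5, 71.2 and 71.6 CPM in series bl. The ORF2p RIP lay above the ORF1p RIP, and both lay above the mock IP and total RNA. The changes over the mock IP were 4.22 ± 0.46 in the ORF2p RIP and 3.18 ± 0.43 in the ORF1p RIP (edgeR, adjusted p = 8.97e-07 and 1.95e-06). The other repeats of the MTR span changed by 1.26 ± 0.15 and 0.54 ± 0.14 in the same comparisons. This copy held 23.0% of L1ME3F reads in the ORF2p RIP.

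The L1MEg1 copies with the most ORF2p RIP reads were a pair in the span of ZNF37A, a zinc finger gene, which were looked up after the subfamily's change had been seen. The copy at chr10:38121036-38121375 (340 bp) had 125, 148, 147 and 133 CPM in the ORF2p RIP, 13.2, 13.7, 30.4 and 11.7 CPM in the ORF1p RIP and 3.37, 2.80 and 2.58 CPM in the mock IP. The copy at chr10:38120449-38120853 (405 bp) had 106 to 139 CPM in the ORF2p RIP, 12.9 to 38.1 CPM in the ORF1p RIP and 2.66 to 3.46 CPM in the mock IP. The ORF2p RIP lay above the ORF1p RIP, which lay above the mock IP, without overlap. They held 22.8% and 19.6% of L1MEg1 reads in the ORF2p RIP, and their changes over the mock IP were 5.57 ± 0.49 and 5.26 ± 0.49 (edgeR, adjusted p = 1.22e-07 and 1.90e-07).

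The L1MEg1 copy with the most reads over all libraries behaved otherwise. It lies in no gene span, at chr9:82822598-82823714 (1117 bp, minus strand), and had 39.6, 46.8, 37.0 and 42.2 CPM in the ORF2p RIP, 0.534, 1.37, 0.805 and 0.456 CPM in the ORF1p RIP and 37.1, 32.8 and 36.1 CPM in the mock IP. Total RNA had 44.2 and 42.6 CPM in series b and 146 to 153 CPM in series bl. The ORF1p RIP lay far below every other library, and the ORF2p RIP and mock IP overlapped. The changes over the mock IP were 0.23 ± 0.43 in the ORF2p RIP and -5.48 ± 0.52 in the ORF1p RIP (edgeR, adjusted p = 0.696 and 1.99e-08).

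The leading L1ME1 copy, at chr1:73002365-73003874 (1510 bp, plus strand) in no gene span and within 10 kb of HERVH, had 67.2, 88.1, 100.3 and 76.4 CPM in the ORF2p RIP, 1.81, 0.869, 0.805 and 0.570 CPM in the ORF1p RIP and 120, 149 and 126 CPM in the mock IP. Total RNA had 73.2 and 84.1 CPM in series b and 397 to 541 CPM in series bl. The order was mock IP, ORF2p RIP and, far below, ORF1p RIP, without overlap. The ORF1p RIP changed by -6.99 ± 0.67 over the mock IP (edgeR, adjusted p = 2.28e-08), and the ORF2p RIP by -0.67 ± 0.53 (adjusted p = 0.321). Of the L1ME1 reads in the ORF2p RIP, 3.37% came from another copy, looked up for its ORF2p RIP reads, at chr9:115317437-115318774 in the span of DELEC1. It had 335 to 360 CPM in the ORF2p RIP, 0.993 to 3.22 CPM in the ORF1p RIP and 13.5 to 17.98 CPM in the mock IP, a change of 4.48 ± 0.62 in the ORF2p RIP over the mock IP (adjusted p = 9.89e-06).

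A pair of L1MEf copies on the minus strand of chromosome 5, in no gene span and within 10 kb of HERVH and young L1, showed no called change over the mock IP. The copy at chr5:25444181-25444795 had 391, 432, 454 and 399 CPM in the ORF2p RIP, 147, 149, 384 and 105 CPM in the ORF1p RIP and 169, 197 and 175 CPM in the mock IP. Here the ORF1p RIP spanned the mock IP, and its replicate 3 alone came near the ORF2p RIP. The change of the ORF1p RIP over the mock IP was 0.12 with all libraries and -0.44 without that replicate (edgeR, adjusted p = 0.873 and 0.570). The ORF2p RIP over the ORF1p RIP was 1.10 (adjusted p = 0.115) with it and 1.65 (adjusted p = 0.0313) without it. The neighbouring copy at chr5:25443782-25444147 (366 bp) had 158, 167, 208 and 159 CPM in the ORF2p RIP, 64.97, 68.1, 90.95 and 48.3 CPM in the ORF1p RIP and 67.0, 79.0 and 81.5 CPM in the mock IP. Its ORF2p RIP libraries lay above all libraries of the ORF1p RIP and mock IP, which overlapped. The ORF2p RIP over the ORF1p RIP was 1.35 ± 0.53 there (adjusted p = 0.0276), a called change.

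The leading L1ME4a copy, at chr3:46582341-46582574 in no gene span, had 102, 161, 213 and 130 CPM in the ORF2p RIP, 15.9, 16.3, 40.9 and 15.6 CPM in the ORF1p RIP and 36.1, 53.5 and 40.3 CPM in the mock IP. It was higher in the ORF2p RIP by 1.81 ± 0.42 over the mock IP (edgeR, adjusted p = 0.00154). The ORF1p RIP changed by -0.97 ± 0.40 (adjusted p = 0.0331) and by -1.44 (adjusted p = 0.00155) without replicate 3, which was its only library within the range of the mock IP.

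**Figure D3:**
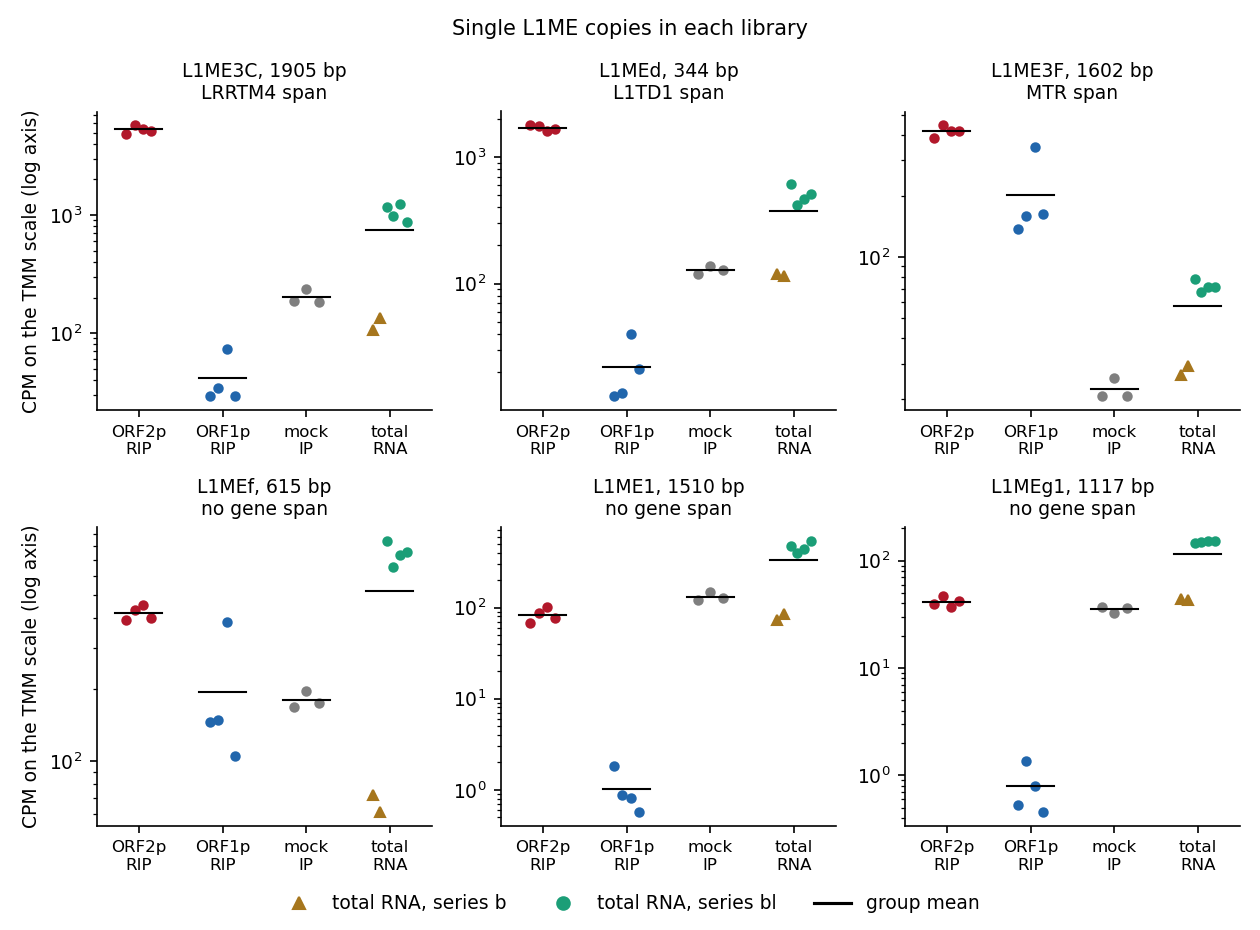
CPM on the TMM scale (y axis, log scale, its range set per panel) of 6 single L1ME copies in each library (points) of the ORF2p RIP, ORF1p RIP, mock IP and total RNA, with lines at group means. The copies in the LRRTM4 and L1TD1 spans are highest in the ORF2p RIP and lowest in the ORF1p RIP, the copy in the MTR span is high in both RIPs, and the L1ME1 and L1MEg1 copies outside gene spans fall to 1.81 CPM or less in the ORF1p RIP.

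Enough reads for a test of single copies were found at 2821 L1ME copies. In the ORF2p RIP over the mock IP 654 were called higher and 243 lower (23.2% and 8.61%), against 30.4% and 15.2% of all 30330 loci tested. In the ORF1p RIP over the mock IP 961 were higher and 1030 lower (34.1% and 36.5%), against 39.0% and 39.1% of all loci. Between the RIPs, 1242 were higher and 868 lower in the ORF2p RIP (44.0% and 30.8%), against 46.8% and 29.0%. The L1ME shares were thus below or close to those of all loci in both RIPs. Without ORF1p RIP replicate 3 the calls in either direction came to 2009 in place of 1991 over the mock IP and to 2148 in place of 2110 between the RIPs. Scaled by library totals, the split in the ORF2p RIP over the mock IP was 556 higher and 446 lower.

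Both RIPs share the mock IP libraries, so their calls are given side by side with no test of overlap. Of the 654 copies higher in the ORF2p RIP, 310 were also higher in the ORF1p RIP, 177 were lower there and 167 were not called. Of the 243 lower in the ORF2p RIP, 96 were higher in the ORF1p RIP and 66 lower. The ORF1p RIP had a further 555 higher and 787 lower with no call in the ORF2p RIP, and 582 had no call in either.

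The largest changes of single copies were at copies with few or no reads in one of the groups. L1MEd at chrX:152667669-152667972, in the span of MAGEA3-DT, the divergent transcript of a cancer-testis antigen gene, had 31.9 to 36.1 CPM in the ORF2p RIP, at most 1.24 CPM in the ORF1p RIP and 0.0750 to 0.122 CPM in the mock IP. L1ME1 at chr9:12995360-12995480, in no gene span, had 7.204 to 10.6 CPM in the ORF2p RIP and no read in the mock IP, so that it was at least 149-fold higher, with the floor set at 3 reads over the mock IP libraries. Copies of L1ME1 at chr2:38205566-38206634 in the LOC102723739 span, with 10.96 to 25.96 CPM, and of L1ME4b at chr17:35272046-35273325 in the span of SLFN5, a schlafen gene, with 9.74 to 12.9 CPM, had 0.244 CPM or less in the mock IP. These 4 were picked for the size of their change and had few or no reads in the mock IP, so their values are a description. The SLFN5 copy had 4.62 to 16.4 CPM in the ORF1p RIP, also above the mock IP.

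The 4 copies with the largest falls in the ORF2p RIP over the mock IP had no read in any ORF2p RIP library. All were high in the ORF1p RIP, but with few mock IP reads they could pass the filter on reads only through the ORF1p RIP or total RNA. These copies and those named next were picked for the size of their change, so their values are a description. L1MEc at chr1:85384073-85384647 in DDAH1, which codes for an enzyme that breaks down methylated arginines, had 7.53 to 7.95 CPM in the ORF1p RIP and 0.676 to 1.53 CPM in the mock IP, so that the ORF2p RIP was at least 16.1-fold lower than the mock IP. L1MEi at chr7:26716554-26717040 in SKAP2, an adaptor protein of Src-family kinase signalling, had 11.7 to 40.1 CPM in the ORF1p RIP and 0.121 to 1.16 CPM in the mock IP. L1ME3G at chr5:174345826-174345973 in LINC01411 and L1ME3 at chr22:47699534-47701955 in EPIC1, both lncRNAs, had 9.64 to 32.8 and 7.69 to 17.6 CPM in the ORF1p RIP. At these last 3, mock IP replicate 1 was the highest mock IP library, with 1.16 to 2.14 CPM against at most 0.376 CPM in the other 2. The other repeats of all 4 spans fell in the ORF2p RIP, by 1.27 to 3.39 on the log2 scale, and rose in the ORF1p RIP, by 3.56 to 5.30.

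The largest rises in the ORF1p RIP over the mock IP included 2 L1ME4a copies. L1ME4a at chrX:103331903-103331965 (63 bp) in TCEAL7, a transcription elongation factor A-like gene, had 10.03 to 17.3 CPM in the ORF1p RIP and no read in the mock IP, at least 192-fold higher. L1ME4a at chr20:17880777-17881245 in LOC105372548 had 25.8 to 31.8 CPM in the ORF1p RIP, none in the ORF2p RIP and at most 0.121 CPM in the mock IP. L1ME4c at chr4:38690062-38690235 in KLF3, a Krüppel-like transcription factor, had 36.7 to 57.7 CPM in the ORF1p RIP, 0.123 to 1.06 CPM in the ORF2p RIP and 0.150 to 0.488 CPM in the mock IP. L1ME3E at chr6:79703410-79703687, in no gene span, had 9.61 to 28.2 CPM in the ORF1p RIP and at most 0.183 CPM in the mock IP.

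The largest falls in the ORF1p RIP were at 4 copies in no gene span, none of which had a read in any ORF1p RIP library. L1MEc at chr21:27850912-27851651 had 11.2 to 13.1 CPM in the ORF2p RIP and 22.4 to 26.7 CPM in the mock IP, so that the ORF1p RIP was at least 270-fold lower than the mock IP. The bounds were at least 207-fold for L1MEd at chr2:76610058-76610385, at least 196-fold for L1ME3A at chr21:27797405-27797745 and at least 183-fold for L1MEc at chr21:27846081-27846754.

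A further 4 copies named for the difference between the RIPs also had no read in the ORF1p RIP and were higher in the ORF2p RIP than in the mock IP. They were L1MEg at chr2:187638205-187638877, with 40.9 to 64.0 CPM in the ORF2p RIP and 8.49 to 11.1 CPM in the mock IP, L1ME1 at chr1:215310387-215312157, L1ME4b at chr1:55036437-55036679 and L1MEf at chr7:119680749-119681338 in LINC02476. The ORF2p RIP was at least 548-, 374-, 344- and 332-fold above the ORF1p RIP at these copies. In the other direction, L1MEf at chr6:74157249-74158941 in LOC101928516 had 12.5 to 30.2 CPM in the ORF1p RIP and no read in the ORF2p RIP, at least 249-fold lower in the ORF2p RIP.

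Copies were also split by where they lay. Of 740 copies in no gene span, the ORF1p RIP over the mock IP had 149 higher and 450 lower, with a median log2 change of -3.43. Of 433 in a lncRNA span, 93 were higher and 274 lower, with a median of -3.75. Of 1366 in a protein-coding span, 618 were higher and 242 lower, with a median of 0.99. In the ORF2p RIP over the mock IP the medians were 0.33, 0.18 and -0.18 in the same places. There 178 were higher and 30 lower (24.1% and 4.05%), 86 higher and 18 lower (19.9% and 4.16%), and 292 higher and 181 lower (21.4% and 13.25%). For all repeat loci tested in these places, 33.0%, 25.3% and 29.2% were higher in the ORF2p RIP and 16.9%, 13.8% and 15.1% lower. All repeat loci tested in these places had medians of 0.22, 0.04 and 0.11 in the ORF2p RIP and of -3.30, -2.42 and 1.28 in the ORF1p RIP. Of them 24.6%, 26.1% and 52.1% were higher in the ORF1p RIP over the mock IP, beside 39.0% of the 30330 loci of all places. The shares lower were 60.7%, 56.5% and 20.7%, beside 39.1% in all places. Of these places, protein-coding spans thus had the smallest share lower in the ORF1p RIP, for L1ME copies and for repeats as a whole.

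Shares of reads were taken over all L1ME copies. Copies in no gene span held 22.2% ± 0.294 of L1ME reads in the ORF2p RIP, 14.4% ± 1.32 in the ORF1p RIP and 21.3% ± 0.509 in the mock IP. Copies in a protein-coding span held 56.8% ± 0.494 in the ORF2p RIP, 67.8% ± 1.74 in the ORF1p RIP and 59.0% ± 0.676 in the mock IP. The ORF1p RIP libraries overlapped no library of the ORF2p RIP or the mock IP in either share (exact p = 0.0286 and 0.0571, adjusted p = 0.0735 for each). Total RNA of series b, at 20.1% and 61.2%, lay nearer the mock IP than series bl, at 26.5% and 51.1%.

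**Figure D4:**
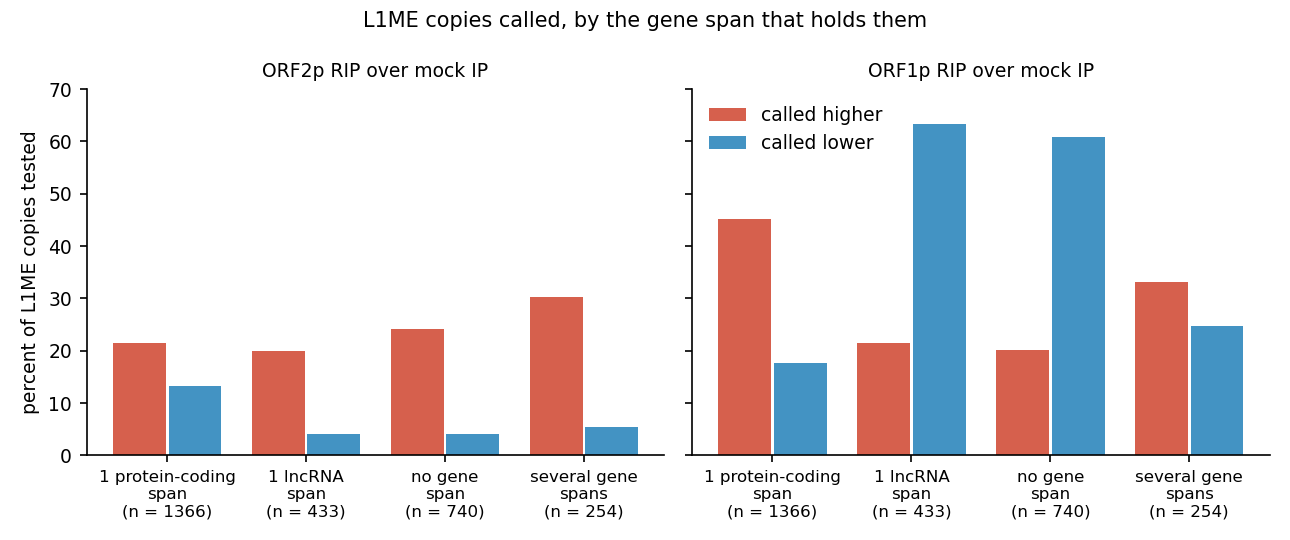
Percent of tested L1ME copies (y axis) called higher and lower over the mock IP in the ORF2p RIP (left) and the ORF1p RIP (right), for copies in 1 protein-coding gene span, 1 lncRNA span, no gene span or several spans (x axis, n copies each). In the ORF1p RIP the lower calls make up 60.8% of copies in no gene span and 63.3% in lncRNA spans, against 17.7% in protein-coding spans.

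The changes of L1ME copies were set beside those of the other repeats in the same gene span. Over 1814 copies in 1007 spans, Pearson's r between the log2 change of the copy and of the other repeats was 0.91 in the ORF1p RIP over the mock IP and 0.60 in the ORF2p RIP over the mock IP, given as a description, since copies of a span share its transcript and its libraries. The sign was the same for 88.5% of copies in the ORF1p RIP and 67.2% in the ORF2p RIP. Of 718 copies higher in the ORF1p RIP, 540 lay in a span whose other repeats were called higher, and of 515 lower, 478 lay in a span called lower. In the ORF2p RIP these counts were 149 of 391 and 30 of 199. Spans called in the opposite direction held 2 of the 718 and 5 of the 515 in the ORF1p RIP, and 0 of the 391 and 11 of the 199 in the ORF2p RIP. The share called among all spans tested is not given here, so these counts have no base rate beside them.

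There were 13 spans with 8 or more tested copies. Copies of a span share its transcript, so their calls are not separate results. Of all repeat loci tested in a lncRNA span, 56.5% were lower in the ORF1p RIP over the mock IP and 26.1% higher. In a protein-coding span 20.7% were lower and 52.1% higher. All 26 copies in PTCHD1-AS, a lncRNA gene antisense to PTCHD1, were lower in the ORF1p RIP, with a median of -4.26 against -4.35 ± 0.15 for the span's other repeats, and none was called in the ORF2p RIP, with a median of -0.17. All 18 copies in LINC02476, all 18 in LINC03077, all 10 in MIR4300HG and all 11 in LINC01194 were also lower in the ORF1p RIP, with medians of -8.08, -5.61, -7.26 and -5.50. The other repeats of LINC03077 and LINC01194 changed by -4.81 ± 0.26 and -6.12 ± 0.26 in the ORF1p RIP. In contrast, all 9 copies in MYH10, which codes for a nonmuscle myosin, all 9 in QKI, which codes for an RNA-binding regulator of splicing, and all 9 in the lncRNA MIR3171HG were higher there, with medians of 3.36, 3.64 and 2.50. Of 8 copies in SMAD2, a transducer of activin and TGF-beta signals, 5 were higher. In MACC1-OT1 12 of 14 copies were lower in the ORF1p RIP, and in DELEC1 9 of 10. No copy of the 11 in OSBPL8, which codes for a lipid transfer protein, was called in the ORF1p RIP, and the median of 0.04 stood against -0.67 ± 0.13 for the span's other repeats. In PLCB1, a phospholipase C gene, 1 of 9 copies was higher, with a median of 0.21 against 0.90 ± 0.22. The median copy also lay apart from the span's other repeats in MIR4300HG, where these changed by -3.20 ± 0.34, and in LINC02476, where they changed by -6.43 ± 0.32.

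In the ORF2p RIP over the mock IP, the 11 copies in LINC01194 had a median of 3.30 with 6 called higher, while the other repeats of that span changed by 0.35 ± 0.22 (edgeR, adjusted p = 0.225). In MYH10 and QKI the medians were -0.65 and -1.32, with 3 copies called lower in each. Among all repeat loci tested, 25.3% in a lncRNA span were higher in the ORF2p RIP and 15.1% in a protein-coding span lower. In SMAD2 the median of the copies was -0.92 while the other repeats changed by 0.58 ± 0.12 (adjusted p = 0.00117).

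**Figure D5:**
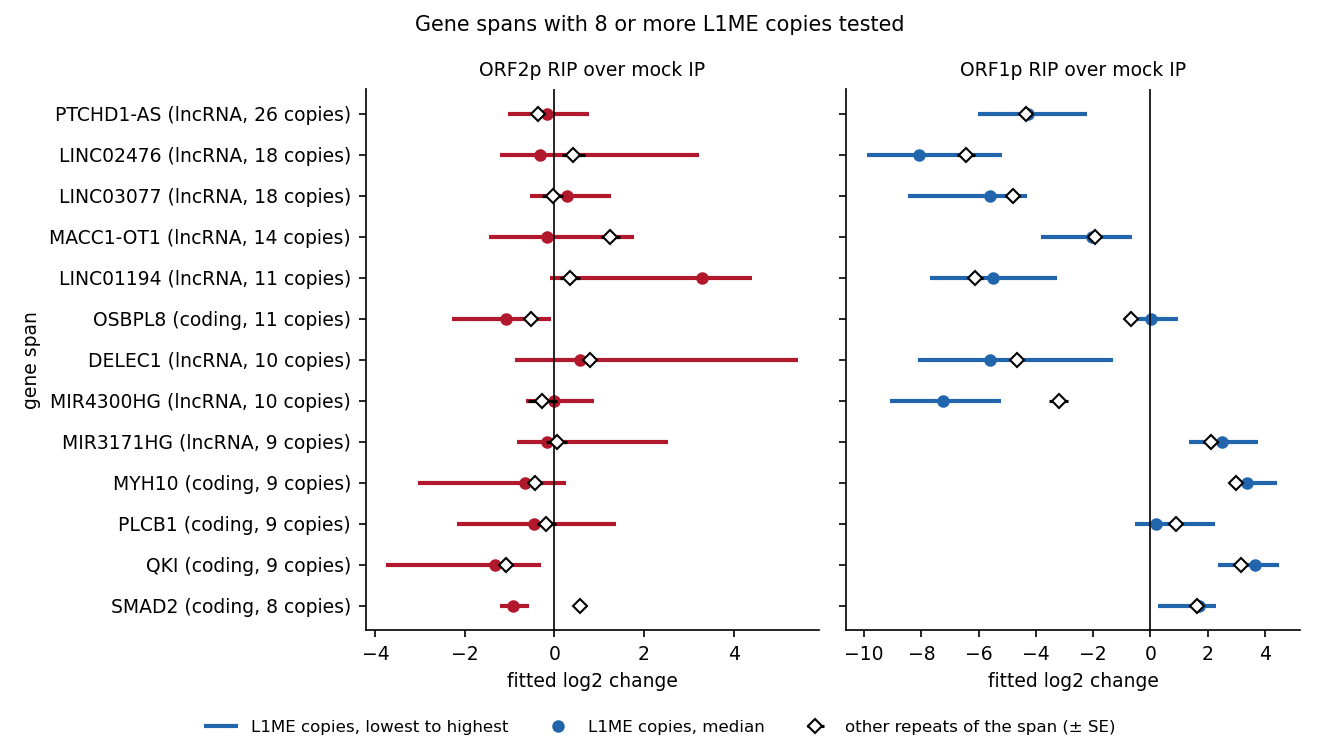
Fitted log2 change over the mock IP (x axis) in the ORF2p RIP (left) and the ORF1p RIP (right) for gene spans with 8 or more tested L1ME copies (y axis): bars run from the lowest to the highest copy, circles mark the median copy, and diamonds the span's other repeats (± SE). Medians run from -1.32 in QKI to 3.30 in LINC01194 in the ORF2p RIP and from -8.08 in LINC02476 to 3.64 in QKI in the ORF1p RIP.

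Copies near HERVH, the endogenous retrovirus whose LTR7 promoter drives transcripts in pluripotent cells, were few. Of L1ME copies 1.71% lay within 10 kb of HERVH-int or an LTR7 form, yet they held 16.95% ± 0.452 of L1ME reads in the ORF2p RIP, 1.72% ± 0.209 in the ORF1p RIP and 5.32% ± 0.197 in the mock IP. In total RNA they held 4.56% in series b and 8.35% in series bl. Of the 177 such copies tested, 52 were higher and 11 lower in the ORF2p RIP over the mock IP, and the ORF1p RIP had 13 higher and 135 lower, with medians of 0.27 and -4.85. Of all 30330 loci tested, 30.4% were higher and 15.2% lower in the ORF2p RIP, so the L1ME share higher there was near that of all loci, and the ORF1p RIP had 39.0% higher and 39.1% lower. Of the 4193 repeat loci of every kind tested within 10 kb of HERVH, HERVH itself included, 12.8% were higher and 45.9% lower in the ORF2p RIP. Their share lower in the ORF1p RIP was 82.9% and their median change -4.57, near the -4.85 of the L1ME copies. The L1ME copies in LRRTM4 are among the 177 and make up 10.3 of the 16.95 percentage points in the ORF2p RIP. Copies within 10 kb of L1HS or L1PA2 to L1PA4 made up 15.03% of L1ME copies. They held 23.2% of L1ME reads in the ORF2p RIP, 13.1% in the ORF1p RIP and 14.8% in the mock IP. The L1ME3C pair in LRRTM4 is among these copies too. It makes up 10.3 of the 23.2 percentage points in the ORF2p RIP, against 0.589 of the 14.8 in the mock IP.

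Length went with the change in the ORF2p RIP and divergence with that in the ORF1p RIP, both weakly. The median change in the ORF2p RIP over the mock IP was 0.58 for 567 copies of up to 300 bp, 0.19 for 795 copies above 300 and up to 600 bp, -0.04 for 905 copies above 600 and up to 1200 bp and -0.17 for 554 longer copies. The share called higher was 35.3%, 25.5%, 18.8% and 14.6% in these classes. Spearman's rho over the 2821 copies was -0.19 with length and 0.0070 with divergence in the ORF2p RIP, and -0.0060 and -0.18 in the ORF1p RIP, across copies that share libraries and often a transcript. All of these copies passed a filter on reads, which a short copy passes only at a high level per kb.

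Against total RNA, 551 L1ME copies were higher and 1078 lower in the ORF2p RIP (19.5% and 38.2%), against 31.4% and 20.9% of all loci. The ORF1p RIP had 754 higher and 1319 lower (26.7% and 46.8%), against 37.8% and 41.6%. Lower calls in the ORF2p RIP came to 786 of 2457 copies without total RNA replicate 5, of series bl. They came to 1214 of 2635 copies without replicate 1, of series b. In the mock IP 47 were higher and 255 lower (1.67% and 9.04%), against 8.28% and 4.09% of all loci. Of the 6 comparisons this last count depended most on the series of total RNA: 1627 of 2444 copies tested were called when only the bl libraries were used, and the count ran from 25 to 1195 when 1 library was left out.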

How the data were processed

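RNA was sequenced after ORF2p RIP (n = 4), ORF1p RIP (n = 4) and mock IP (n = 3) and as total RNA (n = 6) with the Trio RNA-seq kit and rRNA probes, per the labels' protocols. The authors deposited a table of estimated counts per repeat locus, with each locus's subfamily, position and divergence in its name; alignment used STAR and hg38, per the submitters' processing notes, and no source used here names the counting program. Its values need not be whole, and no source used here states how reads that fit several copies were treated. Loci with a whole value held 32.7% to 44.05% of L1ME reads in the ORF2p RIP and 49.96% to 65.2% in the ORF1p RIP. They held 59.1% to 62.0% in the mock IP and 41.2% to 67.0% in total RNA. Every ORF2p RIP library thus lay below every ORF1p RIP and mock IP library. A further 43 columns matched no sample and were not used.

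Counts were summed per subfamily, rounded, and fitted with edgeR 4.0.16 (R 4.3.3; quasi-likelihood test, TMM scaling, all 17 libraries, Benjamini-Hochberg over all features). Filters asked for a minimum count of 10 for subfamilies (1074 tested), 100 for loci (30330) and 50 for the summed other repeats of a gene span (13012). A call needs an adjusted p under 0.05 and a change of at least 2-fold. Shares were compared by exact two-sided permutation tests (SciPy 1.17.1). The fits were tested on simulated data. A fold against a group with no read is a bound at 3 reads over that group's libraries. Gene spans, promoter windows and hairpins came from RefSeq (GRCh38.p14). The chromosome 8 copies enter every count and are not described singly or searched for sequences.

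Named subfamilies are the 3 with the highest mean CPM and, per comparison, the 4 higher and 4 lower calls with the largest change. Named loci are the leading locus of each, the 8 with the most reads and, per comparison among the RIPs and mock IP, the 4 higher and 4 lower calls with the largest change and no overlap between groups. The members and lists were chosen with earlier results of these data known.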

Additional observations from a re-analysis of the deposited data

Results flagged for a closer look

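Of 111 groups of 4 to 6 libraries examined for a single library far from the rest of its group, 14 held such a library. Among independent groups chance gives about 1 in 20. These groups share libraries, and leading copies are counted beside their subfamily, so the 14 cannot be judged against that rate. In 9 of the 14 the library was ORF1p RIP replicate 3, as the highest of its group. It had 6693 CPM of L1MEd, with the next library at 4884, and 314 CPM of L1MEg1, with the next at 220. Among single copies it had 73.7 CPM at L1ME3C chr2:77096220-77098124 (next 34.3), 40.9 CPM at L1ME4a chr3:46582341-46582574 (next 16.3), 384 CPM at L1MEf chr5:25444181-25444795 (next 149) and 31.3 CPM at L1MEd chr1:62207100-62207716 (next 10.4). It also had 350 CPM at L1ME3F chr1:236899040-236900641 (next 164), 16.4 CPM at L1ME4b chr17:35272046-35273325 (next 5.42) and 30.2 CPM at L1MEf chr6:74157249-74158941 (next 14.7). This library had reads at 21.3% of L1ME copies, the lowest share of its group, and the part of that difference in these values was not tested.

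The other 5 were spread over groups. ORF2p RIP replicate 3 was lowest at L1ME1 chr9:12995360-12995480, with 7.204 CPM, and highest at L1ME1 chr1:215310387-215312157, with 46.8 CPM. ORF1p RIP replicate 4 had 0.342 CPM at L1ME1 chr2:38205566-38206634, where the other ORF1p RIP libraries had none. Total RNA replicate 5 had 0.441 CPM at L1ME4a chrX:103331903-103331965 and total RNA replicate 4 had 0.669 CPM at L1ME3E chr6:79703410-79703687.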

How the results depend on the processing

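The calls of L1ME3C and L1MEg1 in the ORF2p RIP over the mock IP and over the ORF1p RIP were made without each library in turn. With the 5 leading loci of each subfamily removed, an alternative chosen after seeing the data, 0 subfamilies were called in the ORF2p RIP over the mock IP, 1 over the ORF1p RIP and 0 over total RNA, where L1ME3C changed by -0.0441 and L1MEd by -0.31. With the leading locus of each subfamily removed, 2 were called over total RNA in the ORF2p RIP and 0 in the ORF1p RIP. L1ME1 and L1MEd then changed by 0.0154 and -0.0817 in the ORF2p RIP over total RNA. Removing only the L1ME copy with the most reads gave an L1ME share of the ORF2p RIP less the ORF1p RIP of -0.0874 points. Without loci in gene spans that share difference was -0.791 points (exact test, adjusted p = 0.0857) and the log2 ratio to L1MC and L1MD in the ORF2p RIP over the mock IP was -0.0128.

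Scaling by library totals gave 2 subfamilies called over total RNA in each RIP and 1 in the mock IP, with 568 loci called in the mock IP over total RNA. It turned L1ME1 in the ORF2p RIP over the ORF1p RIP to -0.14, L1ME4a and L1MEd in the ORF2p RIP over total RNA to -0.16 and -0.26, L1MEf chr5:25444181-25444795 in the ORF1p RIP over the mock IP to -0.0520 and L1MEg1 chr9:82822598-82823714 in the ORF2p RIP over the mock IP to -0.0779. DESeq2 called 1 subfamily in the mock IP over total RNA. A locus minimum of 50 tests more loci and called 1787 in the ORF2p RIP and 4436 in the ORF1p RIP over the mock IP, 4688 between the RIPs, and 3383 and 4596 over total RNA.

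With series b alone as total RNA, 4 subfamilies were called in the ORF2p RIP and 0 in the ORF1p RIP, and the changes over total RNA were 0.56, 0.47 and 0.19 for L1ME1 in the ORF2p RIP, ORF1p RIP and mock IP, 0.0310 for L1ME3C in the ORF1p RIP, 0.18 for L1ME4a in the mock IP, and 0.24 and 0.13 for L1MEd in the ORF1p RIP and mock IP. With series bl alone, 2 subfamilies were called in the ORF1p RIP and 4 in the mock IP, 1627 loci in the mock IP, and L1MEd changed by -0.17 in the ORF2p RIP. Whether replicate numbers pair the libraries is not known. Same-numbered deviations correlated at -0.52 to 0.52, and differently numbered libraries were not correlated for comparison. With the replicate number as a block, 1 locus was called in the mock IP over total RNA and 0 subfamilies in the ORF1p RIP over total RNA, L1ME1 changed by 0.0556 and 0.12 in the ORF1p RIP and ORF2p RIP over total RNA, and L1MEf chr5:25444181-25444795 by -0.17 in the ORF1p RIP over the mock IP.

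Leaving out 1 library moved the loci called in the mock IP over total RNA between 25 (without mock IP replicate 1; 51 and 52 without replicates 2 and 3) and 1195 (without total RNA replicate 1; 1165 without replicate 2), with 89 to 112 without total RNA replicates 3 to 6. Subfamilies called ranged from 0 to 1 in the mock IP over total RNA (1 without total RNA replicate 1 or 2) and from 1 to 2 in the ORF1p RIP over total RNA (2 without either of these or ORF1p RIP replicate 3). L1ME1 in the ORF2p RIP over total RNA ran from -0.16 to 0.0113 (the highest without total RNA replicate 5), and L1MEf chr5:25444181-25444795 in the ORF1p RIP over the mock IP ran from -0.44 (without ORF1p RIP replicate 3) to 0.33 (without ORF1p RIP replicate 4). Where no cause is given, the cause was not tested. Copies with few reads could not be tested singly.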
